A study of Mus musculus with 12 samples.

Results

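The liver and the gut arise from the endoderm, the innermost layer of the embryo, and 10 genes of these tissues were followed across 12 whole mouse embryo RNA samples. They were chosen by name as Afp, Alb, Ttr, Apoa1, Apoa2, Apob, Trf, Hnf4a, Foxa1 and Gcg, and each of their annotated probes was described if at least 4 of 12 arrays detected it, at a detection p under 0.05. Of the 10 genes, 8 had an annotated probe, with 9 probes in all. The only probe of Alb was detected on 0 of 12 arrays, at intensities of 38.7 to 50.4 and detection p-values of 0.372 to 0.976. This left 8 probes of 7 genes, Afp, Apoa1, Apoa2 with 2 probes, Apob, Hnf4a, Foxa1 and Gcg, out of 13876 probes and 7341 named genes in the series. Ttr and Trf were not analysed here.

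All embryos were of the NOD strain, an inbred strain in which mice develop diabetes spontaneously through autoimmune loss of beta cells, and were taken whole at embryonic day 10.5. The control group held 4 pools from normal pregnancies and the diabetic group 4 pools from diabetic pregnancies, each pool made of RNA of 4 embryos from separate pregnancies. The third group held 4 embryos hybridised singly, each with a neural tube defect (NTD), also from diabetic pregnancies and called NTD embryos here. Dams counted as diabetic above 250 mg/dL blood glucose received 5 units of gonadotropin to induce estrus, and for control dams no such injection is recorded either way. The labels leave unstated if embryos with defects went into diabetic pools, and the defect cannot be told apart from hybridising embryos singly. In addition, litters are not given for any sample. RNA was hybridised to an Illumina BeadChip, which reads each transcript with many copies of a probe on beads. Values are log2 normalised intensities, with an offset of 16 added before the log, so that differences of dim probes are understated. The level of 1 probe is not comparable with that of another.

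In the mouse, hepatoblasts, the precursors of hepatocytes and bile duct cells, bud from the foregut shortly before this stage and begin to secrete plasma proteins. Alpha-fetoprotein (Afp) is the main plasma protein of the embryo and is also made by the visceral endoderm of the yolk sac. Albumin (Alb), its relative and neighbour in the genome, replaces it later. Apolipoproteins carry lipids in the blood. The nuclear receptor Hnf4a and the forkhead factor Foxa1 bind promoters of such genes, while Gcg encodes proglucagon, the precursor of glucagon in pancreatic alpha cells and of incretin hormones in gut cells and the brainstem.

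Afp lies on chromosome 5 at 90490714-90508907 (GRCm38.p6), next to Alb at 90460870-90476602. Apoa1 lies on chromosome 9, Apoa2 on chromosome 1, Apob and Foxa1 on chromosome 12, and Hnf4a and Gcg on chromosome 2. The promoters of Afp, Apoa1 and Apoa2 are shown because these genes had like orders of samples within the groups, and that of Gcg because its order in NTD embryos and control pools was another. RefSeq lists 2 starts for Apoa2, both given. Each sequence holds the 250 bases before the RefSeq start (GRCm38.p6), 5′ to 3′ on the gene's strand. Capitals mark the matches on either strand to 5 short motifs. GTTAAT is part of the site read by HNF1 factors. TGTTTGC is a form read by forkhead factors. The form TGTTTAC is read by the same family. TTGCNNAA is read by C/EBP factors. The last, TATAAA, is the TATA box.
Afp, chr5:90490464-90490713, plus strand: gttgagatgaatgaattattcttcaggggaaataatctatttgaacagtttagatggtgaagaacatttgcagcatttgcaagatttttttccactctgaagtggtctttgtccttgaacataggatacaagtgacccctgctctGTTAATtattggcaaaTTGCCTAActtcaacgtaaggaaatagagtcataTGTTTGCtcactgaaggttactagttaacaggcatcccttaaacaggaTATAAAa
Apoa1, chr9:46228380-46228629, plus strand: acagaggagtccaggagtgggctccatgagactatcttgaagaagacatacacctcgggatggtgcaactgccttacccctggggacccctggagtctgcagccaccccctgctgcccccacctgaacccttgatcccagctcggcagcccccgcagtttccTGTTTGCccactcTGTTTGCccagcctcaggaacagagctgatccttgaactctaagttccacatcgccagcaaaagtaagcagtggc
Apoa2 start 1, chr1:171221314-171221563, plus strand: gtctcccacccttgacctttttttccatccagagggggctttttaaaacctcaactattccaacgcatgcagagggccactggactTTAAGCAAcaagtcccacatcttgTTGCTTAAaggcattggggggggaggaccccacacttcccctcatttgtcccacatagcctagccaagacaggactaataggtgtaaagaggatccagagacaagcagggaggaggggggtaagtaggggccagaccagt
Apoa2 start 2, chr1:171224804-171225053, plus strand: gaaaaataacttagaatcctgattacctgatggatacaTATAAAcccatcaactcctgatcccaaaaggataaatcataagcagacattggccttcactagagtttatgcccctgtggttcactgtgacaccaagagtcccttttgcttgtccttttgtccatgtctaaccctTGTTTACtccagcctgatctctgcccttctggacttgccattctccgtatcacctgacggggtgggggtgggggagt
Gcg, chr2:62483654-62483903, minus strand: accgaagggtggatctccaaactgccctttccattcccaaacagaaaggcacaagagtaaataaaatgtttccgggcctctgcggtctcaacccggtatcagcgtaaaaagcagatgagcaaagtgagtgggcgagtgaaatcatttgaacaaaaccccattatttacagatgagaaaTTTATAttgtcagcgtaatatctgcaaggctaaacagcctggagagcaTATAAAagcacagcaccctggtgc

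The forkhead form TGTTTGC stood 55 bases before the start of Afp and at 88 and 75 bases before that of Apoa1. That form occurred in 4.30% of all 32851 promoter windows of the same length. TGTTTAC, found in 3.17% of windows, stood 77 bases before the second start of Apoa2. TTGCNNAA, found in 9.56% of windows, matched at 89 bases in Afp and at 164 and 140 bases before the first start of Apoa2. GTTAAT, found in 6.43% of windows, matched in Afp at 105 bases. In the Gcg window TATAAA alone matched, at 72 and 24 bases. This motif, found in 12.4% of windows, also stood at 7 bases in Afp and at 212 bases before the second start of Apoa2. No 2 motif matches overlapped in the sequences shown. Members whose promoters are not shown had matches too. TGTTTGC stood at 121 bases in Apob and 128 in Alb, and TTGCNNAA at 90 and 94. GTTAAT matched at 32 bases in Alb and at 81 and 74 before the second start of Hnf4a. TGTTTAC matched at 141 bases in Foxa1 and TATAAA at 60 in Apob. The matches were thus not particular to genes with like orders of samples. The motifs were chosen with the sequences in view, and a match is a description of letters.

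Transcripts of Afp, Apoa1 and Apoa2 differed in mean by at most 0.19 on the log2 scale between any 2 groups, and by 2.14-fold to 3.29-fold between the lowest and highest single embryo. In limma, which tested 13876 probes together, 0 of 8 member probes passed an adjusted p under 0.05 between diabetic and control pools, where 1.60% of all probes passed. At an unadjusted p under 0.05, 2 member probes were lower, those of Gcg and Apob, and 0 higher, while 6.83% of all probes were lower and 6.17% higher. The probe of Apob passed the detection filter through control pools and NTD embryos alone, so its place in this count follows in part from the filter. Between NTD embryos and control pools 0 of 8 passed, with 0.0360% of all probes passing, and 0 of 8 had an unadjusted p under 0.05 in limma against 9.94% of all probes. Between NTD embryos and diabetic pools 0 of 8 passed and 0% of all probes did; 0 of 8 had an unadjusted p under 0.05, against 2.91%. The values of Gcg did not overlap between diabetic and control pools and were lower in diabetic pools. Of all probes, 4.53% lay apart and lower and 4.13% higher. Those of Apob lay apart and lower too, which again follows in part from the filter. No member probe lay apart between NTD embryos and control pools (3.21% of all probes higher and 2.67% lower) or diabetic pools (1.14% and 0.685%). Any pair of these comparisons shares a group of samples. Each p-value sets a mean difference against the spread between samples, which limma estimates with help from all probes. With NTD embryos that spread joins single embryos and pools of 4.

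**Figure D1:**
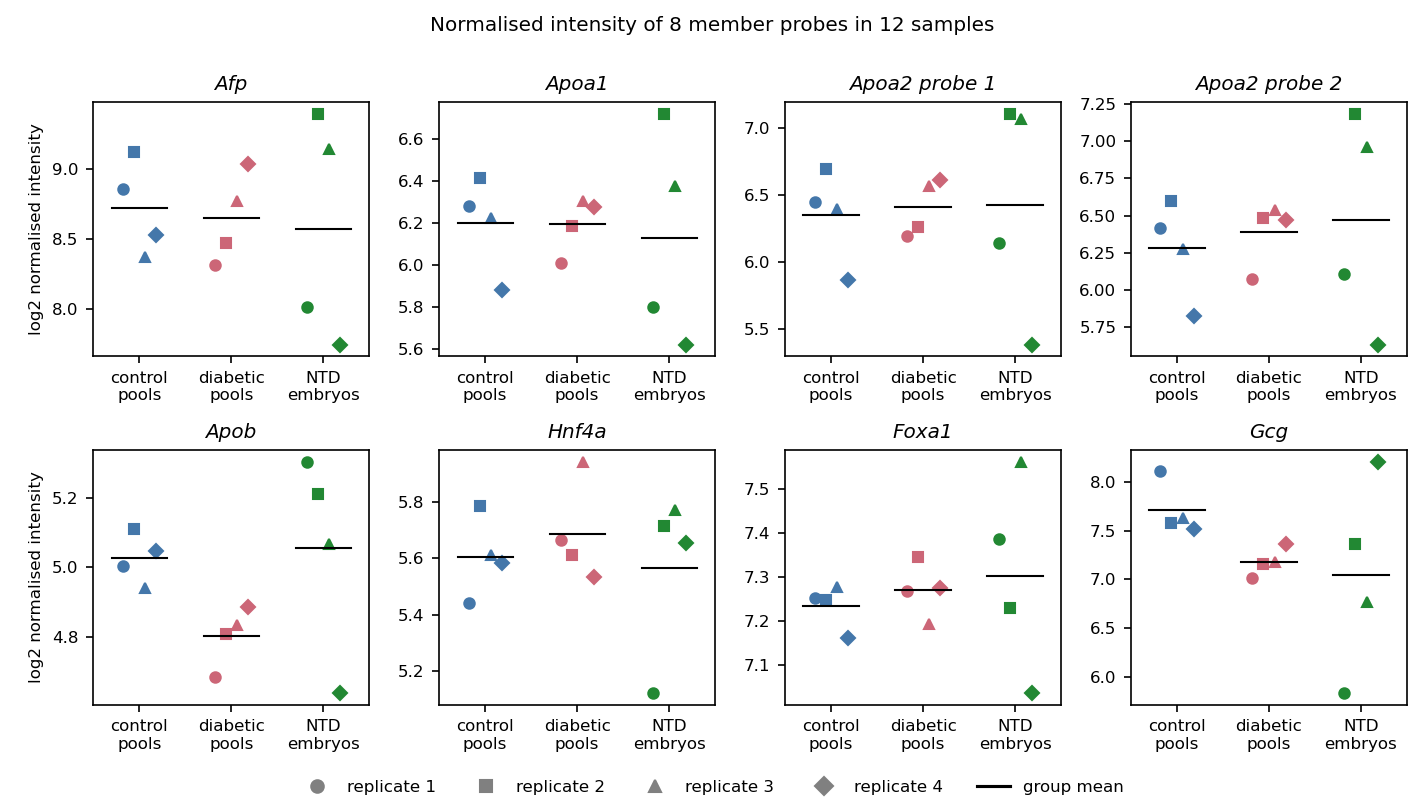
Log2 normalised intensity (vertical axes, scaled to each probe) of the 8 member probes in the 12 samples, with symbols for the replicates and a line at each group mean. Gcg of the 4 diabetic pools lies below all 4 control pools, as does Apob, whose probe passed the filter through the other groups. Afp, Apoa1 and Apoa2 of NTD embryos 2 and 3 lie above those of NTD embryos 1 and 4.

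Afp was detected on 12 of 12 arrays, with deposited intensities of 225.3 to 737.4. Its log2 values were 8.86, 9.12, 8.37 and 8.53 in control pools 1 to 4. They were 8.31, 8.47, 8.78 and 9.04 in diabetic pools 1 to 4, a range that overlapped the controls. They were 8.01, 9.40, 9.15 and 7.75 in NTD embryos 1 to 4. NTD embryos 1 and 4 thus lay below all 8 pools and NTD embryos 2 and 3 above them, embryo 3 by 0.02 only (9.15 against 9.12 in control pool 2). Before normalisation embryo 3, at 571.7, lay below control pool 2 and diabetic pool 4. The single embryos spanned a 3.15-fold range, against 1.68-fold among control pools and 1.65-fold among diabetic pools. The difference between diabetic and control pools was -0.07 ± 0.18 (SE, n = 4 per group; 95% interval -0.46 to 0.32, limma adjusted p = 0.918). That between NTD embryos and control pools was -0.15 ± 0.34 (interval -0.90 to 0.60, adjusted p = 0.941). Control pools 3 and 4, the lower of the controls, also had low values of Kdm5d, a gene of the Y chromosome, at 4.60 and 4.42 against 8.19 and 8.28 in control pools 1 and 2. All 4 diabetic pools had Kdm5d at 7.23 or more, and its values in NTD embryos 1 to 4 were 9.18, 9.05, 4.59 and 4.48. Without control pools 3 and 4 the difference of Afp between diabetic and control pools was -0.34 ± 0.18 (limma adjusted p = 0.582).

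Apoa1 encodes the main protein of high-density lipoprotein. Its values were 6.28, 6.41, 6.22 and 5.88 in control pools 1 to 4 and 6.01, 6.19, 6.30 and 6.27 in diabetic pools 1 to 4. They were 5.80, 6.72, 6.38 and 5.62 in NTD embryos 1 to 4. NTD embryo 2 was again above every pool and NTD embryos 1 and 4 below every pool. The difference between diabetic and control pools was -0.0060 ± 0.11 (SE, n = 4 per group; 95% interval -0.25 to 0.24, limma adjusted p = 0.991). That between NTD embryos and control pools was -0.07 ± 0.22 (interval -0.56 to 0.42, adjusted p = 0.962).

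Apoa2 encodes another protein of the same lipoprotein particles and was read by 2 probes. On probe 1 the values were 6.45, 6.70, 6.40 and 5.87 in control pools 1 to 4 and 6.20, 6.27, 6.56 and 6.61 in diabetic pools 1 to 4. On the same probe they were 6.14, 7.10, 7.07 and 5.39 in NTD embryos 1 to 4, so that NTD embryos 2 and 3 lay above all pools and NTD embryo 4 below them. The range between single embryos was 3.29-fold on probe 1 and 2.93-fold on probe 2, and 1.78-fold and 1.71-fold among control pools. Both probes placed NTD embryos in the order 2, 3, 1, 4, and differed by at most 0.25 in any sample. The difference between diabetic and control pools was 0.06 ± 0.16 on probe 1 and 0.11 ± 0.15 on probe 2 (n = 4 per group, errors are SE). Neither passed in limma (adjusted p = 0.929 and 0.833). Against control pools, the difference in NTD embryos was 0.07 ± 0.34 on probe 1 and 0.19 ± 0.31 on probe 2, with 95% intervals of -0.69 to 0.83 and -0.49 to 0.87.

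Apob encodes the protein of low-density lipoprotein and of yolk sac lipoproteins. Its probe was dim, with deposited intensities of 52.1 to 71.8, and was detected in 2 of 4 control pools, 0 of 4 diabetic pools and 2 of 4 NTD embryos. The values were 5.00, 5.11, 4.94 and 5.05 in control pools 1 to 4 and 4.68, 4.81, 4.83 and 4.89 in diabetic pools 1 to 4. All 4 diabetic pools lay below all 4 control pools, with means of 4.80 and 5.02. These 4 detections are just the number the filter asks for and lie outside the diabetic pools. A lower value there was thus in part a condition of describing the probe. Its unadjusted p under 0.05 in limma and its interval below 0 carry this limit, and the adjusted p was 0.197. No fold is given, because the control mean of 5.02 lies below the mean of 5.09 for the dimmest detected probes of the diabetic pools. NTD embryos 1 to 4 had values of 5.30, 5.21, 5.07 and 4.64, with NTD embryo 1 the highest of all samples on this scale.

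Hnf4a was detected on 11 of 12 arrays, missing NTD embryo 1, and its values were 5.44 to 5.79 in control pools, 5.53 to 5.94 in diabetic pools and 5.12 to 5.77 in NTD embryos. Foxa1, which also marks the floor plate of the neural tube, was detected on all 12 arrays. Its values were 7.16 to 7.28 in control pools, 7.19 to 7.34 in diabetic pools and 7.04 to 7.56 in NTD embryos. For both factor genes the 3 groups overlapped. The difference between diabetic and control pools was 0.08 ± 0.10 for Hnf4a (SE, n = 4 per group; 95% interval -0.14 to 0.31, limma adjusted p = 0.811). It was 0.04 ± 0.07 for Foxa1 (interval -0.11 to 0.18, adjusted p = 0.893). Against control pools, NTD embryos differed by -0.04 ± 0.14 in Hnf4a and 0.07 ± 0.11 in Foxa1 (limma adjusted p = 0.968 and 0.906).

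Gcg was detected on 12 of 12 arrays. Its deposited intensities were 330.8, 239.8, 244.3 and 241.2 in control pools 1 to 4 and 163.8, 176.4, 169.4 and 204.1 in diabetic pools 1 to 4. On the log2 scale these were 8.11, 7.58, 7.63 and 7.52, and 7.02, 7.15, 7.17 and 7.36. Every diabetic pool lay below every control pool, as 4.53% of all probes did. The mean was 7.71 ± 0.27 (SD, n = 4) in control pools and 7.18 ± 0.14 (SD, n = 4) in diabetic pools, a difference of -0.53 ± 0.13 (SE; 95% interval -0.81 to -0.26) or a 1.45-fold lower level. The difference did not pass over all probes (limma adjusted p = 0.0648).

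The result for Gcg lay close to the threshold. The adjusted p in limma was 0.0308 with median scaling, 0.0438 without background correction, 0.0443 with array weights and 0.0423 without diabetic pool 4, and it was 0.0571 to 0.737 under the other 7 settings and 0.0789 to 0.183 without each of the other 7 pools. The bead standard error of the Gcg intensity was 2.65 to 5.80% of the intensity on each array, from 27 to 49 beads. In NTD embryos 1 to 4 Gcg had values of 5.83, 7.36, 6.76 and 8.20. NTD embryo 1 was the lowest of the 12 samples and NTD embryo 4 the highest, a 5.18-fold range. Before normalisation NTD embryo 4, at 301.0, lay below control pool 1. The difference between NTD embryos and control pools was -0.67 ± 0.40 (SE, n = 4 per group; 95% interval -1.54 to 0.21, limma adjusted p = 0.632). Without NTD embryo 4 it was -1.06 (adjusted p = 0.172) and without NTD embryo 1 -0.27 (adjusted p = 0.758). Against diabetic pools it was -0.14 ± 0.38 (limma adjusted p = 0.997), 0.27 without NTD embryo 1 and -0.52 without NTD embryo 4.

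**Figure D2:**
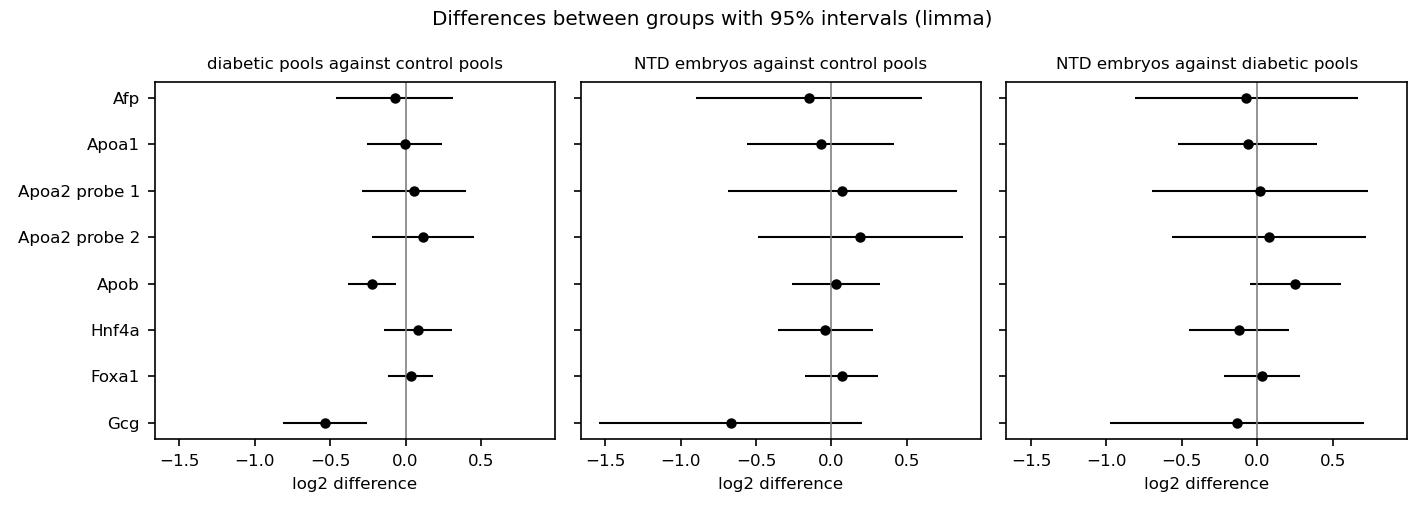
Log2 differences (horizontal axes) of the 8 member probes in the 3 comparisons, as points with 95% intervals from limma. The interval of Gcg between diabetic and control pools (-0.81 to -0.26) lies below 0, before adjustment over all probes, as does that of Apob, whose probe passed the filter through the other groups; those of the comparisons with NTD embryos all include 0.

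Afp, Apoa1 and Apoa2 had like orders of samples within the groups, and Apob shared them in part. In control pools the order of samples was 2, 1, 3, 4 for Apoa1 and for both probes of Apoa2, and 2, 1, 4, 3 for Afp. In NTD embryos it was 2, 3, 1, 4 for Afp, Apoa1 and both probes of Apoa2. In diabetic pools it was 4, 3, 2, 1 for Afp, Apoa2 probe 1 and Apob, 3, 4, 2, 1 for Apoa1 and 3, 2, 4, 1 for Apoa2 probe 2, with pool 1 the lowest in each. The order of Apob was 2, 4, 1, 3 in control pools and 1, 2, 3, 4 in NTD embryos. The mean deviation from the group mean over Afp, Apoa1, Apoa2 and Apob was 0.56 in NTD embryo 2, 0.37 in embryo 3, -0.23 in embryo 1 and -0.70 in embryo 4. The same mean was 0.07, 0.26, -0.09 and -0.24 in control pools 1 to 4 and -0.21, -0.08, 0.11 and 0.19 in diabetic pools 1 to 4. In whole embryos, fewer cells of a type and less RNA per cell cannot be told apart.

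Genes with the pattern most like that mean were ranked among 7334 other named genes by Pearson's r of deviations from the group means over the 12 samples, as a description. The nearest was Apom (r = 0.982), an apolipoprotein of high-density lipoprotein. Itih2 (0.943), a serum carrier of hyaluronan, was the third, Fga (0.918) the fifth and Fgg (0.881) the eighth, the last pair encoding fibrinogen chains. The other genes among the nearest 8 were Alox5ap (0.967), a leukotriene synthesis gene of white blood cells, Washc3 (0.923), Depp1 (0.899) and Cops5 (0.897), a signalosome subunit gene. Washc3 and Cops5 varied little, with SDs of 0.07 and 0.09 of their deviations, against 0.40 for Apom and 0.49 for Itih2. Of 9 hepatic plasma protein genes measured outside the members, 4 were thus among the nearest 8, and all 9 had r above 0, as did 51% of all 7334 genes. The other lists of liver and gut genes, given below, did not share the pattern as a whole. For hepatic transcription factor genes r ran from -0.886 (Onecut2, rank 7333) to 0.504 (Tbx3). For gut and pancreas endoderm genes it ran from -0.847 (Nkx6-1) to 0.727 (Nkx2-1).

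The 4 nearest plasma protein genes were chosen over samples that include the pools, so their values over the pools are a description. Over the 8 pools alone, r was 0.958 for Apom, 0.955 for Itih2, 0.881 for Fga and 0.858 for Fgg, at ranks 4, 6, 66 and 101. The other 5 plasma protein genes had an r of 0.027 to 0.28 over the pools. In NTD embryos 1 to 4 Apom had log2 values of 6.88, 8.00, 7.57 and 6.36, and Itih2 of 6.24, 7.60, 7.56 and 6.18. Fga had values of 4.74, 6.14, 5.63 and 4.77 in the same embryos. Embryos 2 and 3 were the higher pair for each of these genes.

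**Figure D3:**
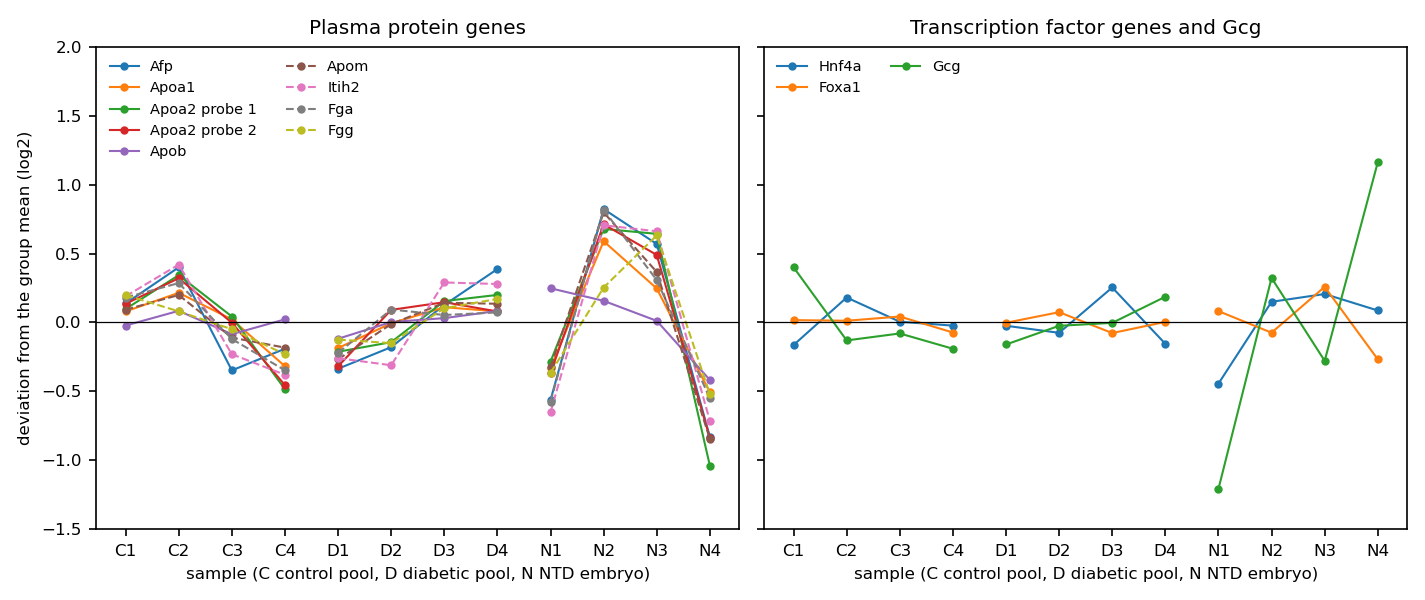
Deviation of each sample from its group mean (log2, vertical axis) for the plasma protein genes, with members as solid and the 4 nearest plasma protein genes as dashed lines, and for Hnf4a, Foxa1 and Gcg. In NTD embryos 2 and 3 the plasma protein genes other than Apob lie above 0 and in NTD embryos 1 and 4 below it, while Gcg is lowest in NTD embryo 1 and highest in NTD embryo 4.

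Gcg had the order 4, 3, 2, 1 in diabetic pools, that of Afp, but 1, 3, 2, 4 in control pools and 4, 2, 3, 1 in NTD embryos. With the mean of the plasma protein members, r was -0.17 for Gcg, 0.35 for Hnf4a and 0.49 for Foxa1 over the 12 samples, and 0.46, 0.26 and 0.08 over the 8 pools alone. Among the members of the mean, r was 0.65 for Apob against 0.96 to 0.98 for Afp, Apoa1 and Apoa2, which form part of the mean themselves.

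The spread between NTD embryos was larger than that among pools for every member probe. The SD of Afp was 0.82 in NTD embryos, 0.34 in control pools and 0.32 in diabetic pools (n = 4 each). That of Gcg was 1.00, 0.27 and 0.14. Over all 13876 probes the median SD was 0.17, 0.11 and 0.13 in the same order. Between NTD embryos, 0.389% of all probes had an SD at least that of Afp, 0.382% that of Apoa2 probe 1, 2.27% that of Apoa1 and 0.159% that of Gcg. Among control pools the like shares were 0.685% for Afp, 0.461% for Apoa2 probe 1, 6.41% for Apoa1 and 2.52% for Gcg, and among diabetic pools 3.73%, 19.7%, 50.6% and 45.6%. In NTD embryos the shares were 14.5% for Apob, 13.9% for Hnf4a and 29.2% for Foxa1. A pool averages 4 embryos, so its SD and that of single embryos are not of the same kind.

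**Figure D4:**
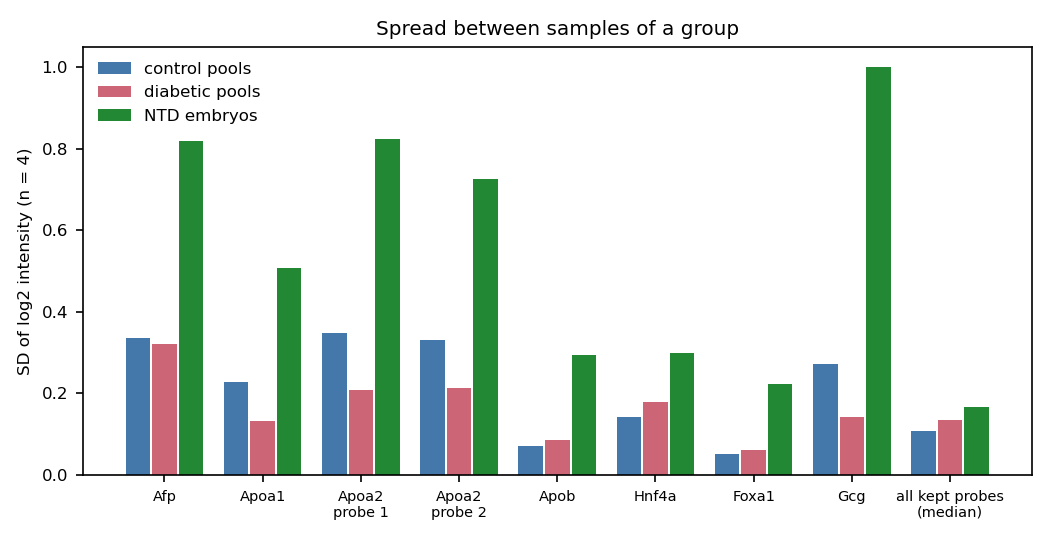
SD of log2 intensity between the 4 samples of each group for the 8 member probes and the median over all 13876 probes. Bars of NTD embryos reach 0.82 for Afp and 1.00 for Gcg, against a median of 0.17 over all probes.

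Other measures differed among NTD embryos as well. The number of detected probes was 12546, 13393, 13097 and 13036 of 32766 in NTD embryos 1 to 4, against 13248 to 13736 in pools. The median intensity before normalisation was 57.2, 58.9, 58.5 and 55.3 in these embryos. Summed intensities of lists, here and below, add normalised intensities off the log scale. The brightest probes of a list thus weigh most, such as those of globin genes among the erythroid genes. The summed intensity of 13 measured erythroid genes of 19 listed was 103747, 113450, 87287 and 93142 in NTD embryos 1 to 4, and 106364 to 114313 in pools. Of 10 yolk sac visceral endoderm markers, 7 had an annotated probe and 3 were measured (Lrp2, Dab2 and Cited1), with sums of 1731 to 1964 in control pools, 1538 to 1865 in diabetic pools and 1657, 1684, 1874 and 1464 in NTD embryos 1 to 4. The defining yolk sac gene Cubn was detected on 0 of 12 arrays, as were Entpd2 and Cldn2. The defining gene Amn was not among the 3 measured. The summed intensity of 6 of 13 liver mesenchyme and mesothelium markers was 946, 1118, 1101 and 929 in NTD embryos 1 to 4, in the order of Afp, Apoa1 and Apoa2. It was 1055, 1097, 1021 and 1118 in control pools 1 to 4 and 982, 1083, 980 and 1037 in diabetic pools 1 to 4. In both groups of pools the order was unlike that of Afp, Apoa1 and Apoa2. The part of these measures in the plasma protein pattern was not tested. Of 9 placenta and decidua markers 1 was measured, Hand1, with a sum of 39 to 76 over all samples.

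Further genes of liver and gut were read from lists that held no member. Among 9 measured of 33 listed plasma protein genes, 0 passed between diabetic and control pools in limma. Apoc2, an activator of lipoprotein lipase, had 0.27 ± 0.09 (SE, n = 4 per group; adjusted p = 0.194), the only 1 with an unadjusted p under 0.05. The list's median was -0.0062 in that comparison and 0.06 between NTD embryos and control pools, where 0 passed and Apoc2 had 0.32 ± 0.12 (limma adjusted p = 0.410). The summed intensity of this list was 744, 1390, 1344 and 630 in NTD embryos 1 to 4, 855 to 1108 in control pools and 929 to 1083 in diabetic pools. NTD embryos 2 and 3 were above all pools and NTD embryos 1 and 4 below them, as for Afp. The annotated probes of 11 listed genes, among them Ahsg, Fgb and Apoh, were detected on 0 of 12 arrays.

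Of 8 measured hepatic transcription factor genes of 18 listed, 0 passed in any of the 3 comparisons in limma. The T-box gene Tbx3 had -0.24 ± 0.11 between NTD embryos and control pools (adjusted p = 0.488) and Gata4 had 0.17 ± 0.08 between diabetic and control pools (adjusted p = 0.370), each at an unadjusted p under 0.05. Against diabetic pools Tbx3 had -0.29 ± 0.11 in NTD embryos (limma adjusted p = 0.997). The list's median was 0.05 between diabetic and control pools. Cebpa, a factor of hepatocyte maturation, was detected on 0 of 12 arrays.

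Of 8 measured hepatic enzyme and transport genes of 22 listed, 1 passed the test, higher in diabetic pools. This was Arg1, the arginase of the urea cycle, which yolk sac and macrophages also express, at 10.1 against 9.83 in control pools (0.29 ± 0.07, SE, n = 4 per group, limma adjusted p = 0.0499). Its adjusted p was 0.0678 to 0.151 without any 1 of the 8 pools. The call was also lost in 5 of 10 other settings, at 0.0687 in the authors' value table, 0.0876 with all 12 arrays in 1 fit, 0.183 with median scaling, 0.187 with the replicate block and 0.377 without control pools 3 and 4. Fbp1, an enzyme of gluconeogenesis, had -0.26 ± 0.08 (adjusted p = 0.181). The list's median was -0.0062, and 0 of its genes passed in limma in either comparison with NTD embryos, where Arg1 had 0.29 ± 0.07 against control pools (limma adjusted p = 0.223; unadjusted p under 0.05 for 1 and 0 genes).

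Of 15 measured gut and pancreas endoderm genes of 32 listed, 0 passed in limma in any comparison. Between diabetic and control pools 3 of 15 were higher at an unadjusted p under 0.05 in limma, where 6.17% of all probes were higher. These were Nkx6-1 (0.45 ± 0.11, adjusted p = 0.0721), Cdx2 (0.43 ± 0.16, adjusted p = 0.256) and Barx1 (0.23 ± 0.09, adjusted p = 0.291). Nkx6-1 also marks ventral neural tube and Cdx2 the caudal embryo. Against control pools, Cdx2 had 0.71 ± 0.19 in NTD embryos (adjusted p = 0.244). The list's median was 0.06 between diabetic and control pools and 0.08 between NTD embryos and control pools. The insulin gene Ins2, the islet genes Iapp and Chga and the motor neuron and pancreas factor gene Mnx1 were detected on 0 of 12 arrays, while Gcg was detected on all 12.

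Of 6 measured receptor and partner genes of 21 listed, 0 passed in limma in any comparison. The lipoprotein receptor gene Lrp8 had 0.27 ± 0.09 between diabetic and control pools (adjusted p = 0.167) and 0.29 ± 0.13 between NTD embryos and control pools (adjusted p = 0.471), both at an unadjusted p under 0.05. The glucagon receptor gene Gcgr had 0.0031 ± 0.09 between diabetic and control pools (adjusted p = 0.994). The incretin receptor genes Glp1r and Glp2r were detected on 0 of 12 arrays.

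Genes listed as erythroid markers and as liver mesenchyme and mesothelium markers had medians below 0 against control pools. In whole embryos these genes, Lhx2 among them, are not read from the liver or blood alone. Between NTD embryos and diabetic pools the medians were -0.30 for erythroid and 0.05 for mesenchyme and mesothelium genes. Of 13 erythroid genes 0 passed in limma in any comparison, and the median was -0.12 between diabetic and control pools and -0.39 between NTD embryos and control pools, with 3 and 6 genes lower at an unadjusted p under 0.05, against 6.83% and 4.85% of all probes. In diabetic against control pools the erythroid gene Hemgn had -0.44 (limma adjusted p = 0.0578) and the globin gene Hbb-bt -0.66 (adjusted p = 0.0906). Of 6 mesenchyme and mesothelium genes 0 passed in limma, with medians of -0.11 in both comparisons. In each of them 1 gene was lower at an unadjusted p under 0.05, the endothelial receptor gene Lyve1 (-0.23 ± 0.09) in diabetic pools and the homeobox gene Lhx2 (-0.43 ± 0.17) in NTD embryos.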

How the data were processed

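The authors' non-normalized table holds, per the file headers, a mean bead intensity per probe and array, with a detection p-value, a standard error over beads and a number of beads. GenomeStudio is named per the submitters' processing notes, and its settings are not given in the sources used here. The series' value table gives processed intensities as deposited, with a method not given in the sources used here. It served as an alternative after values below 1 were raised to 1.

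Intensities were background-corrected, offset by 16, quantile-normalized and log2-transformed with neqc of limma 3.58.1 in R 4.3.3. Of 32766 probes, 23340 had 1 gene symbol, 13 several and 9413 none in the platform annotation, and symbols were updated by Entrez identifier. Probes detected (p under 0.05) on at least 4 of 12 arrays, 13876 in all, were fitted with lmFit and eBayes on the 8 arrays compared, two-sided, with Benjamini-Hochberg adjustment over all of them. Alternatives were the authors' value table, median scaling, no background correction, stricter and no detection filters, 1 probe per gene, all 12 arrays in 1 fit, array weights, a replicate block, and leaving out samples. Lists were read through the brightest probe of each gene. Named were all members, and of each list the genes called or up to 3 with the smallest p, plus the 8 genes nearest the plasma protein members' mean by Pearson's r. The members and lists were chosen with earlier results of these data known. Promoters are RefSeq's (GRCm38.p6).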

Additional observations from a re-analysis of the deposited data

Results flagged for a closer look

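Of 24 groups of 4 values, 8 probes in 3 groups, 1 held a value far from the other 3: Apoa2 probe 2 in diabetic pool 1, at 6.07 on the log2 scale against 6.47 for the next lowest pool. Chance gives about 1 in 20. Apoa2 probe 1 had 6.20 in the same pool, the lowest of its group without standing apart.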

How the results depend on the processing

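Gcg was the member probe that some settings called between diabetic and control pools: the count of members called was 1 with median scaling, without background correction and with array weights, and 0 to 1 when each pool was left out in turn, against 0 in the reported fit. With the replicate block the difference of Gcg was -0.53 (limma adjusted p = 0.187), 0 members were called and all calls fell from 222 to 96. The reported fit did not pair same-numbered samples, as the labels do not say what the numbers share. Their deviations correlated at -0.25 to 0.28. In the comparisons of diabetic with control pools, NTD embryos with control pools and NTD embryos with diabetic pools, 0, 5 and 1 of 8 samples correlated best with their own number. Each sample was set against the 4 of the other group, and the cause of the 5 was not tested. Between NTD embryos and control pools the correlations were 0.0028 to 0.26. There the replicate block lowered the SE of Apoa2 probe 1 from 0.343 to 0.191 (limma adjusted p = 0.926). No member was called in the comparisons with NTD embryos under any setting. All calls between diabetic and control pools were 40 with all 12 arrays in 1 fit, 52 without control pools 3 and 4, 132 in the authors' value table and 100 to 281 with single pools left out. Between NTD embryos and control pools 5 probes were called, against 1 in the value table, without a filter and with the replicate block, 2 with probes detected on all 12 arrays, 24 with all arrays in 1 fit, 54 with array weights, 0 without control pools 3 and 4 and 1 to 62 with single samples left out. Median scaling shifted the median of all probes by -0.11 between NTD embryos and control pools and gave 36 higher and 249 lower calls between the pools, against 70 and 152.

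Values that changed sign passed in no setting, and the cause was not tested. Between diabetic and control pools these were Foxa1 (-0.043) and Apoa2 probe 1 (-0.021) with median scaling, Apoa2 probe 1 (-0.026) with array weights, and probes 1 and 2 of Apoa2 (-0.16 and -0.11) without control pools 3 and 4. With single pools left out the ranges were -0.11 to 0.066 for Apoa1, -0.20 to 0.061 for Afp, -0.11 to 0.17 and -0.038 to 0.22 for Apoa2 probes 1 and 2, and -0.0027 to 0.14 for Hnf4a. Between NTD embryos and control pools they were Apob (-0.18) in the authors' value table, Foxa1 (-0.083), Apoa2 probe 1 (-0.072) and Apob (-0.00031) with median scaling, Hnf4a (0.00084), Afp (0.028) and Apoa1 (0.041) with array weights, and Apoa2 probe 1 (-0.15), Apob (-0.0015) and Apoa2 probe 2 (-0.037) without control pools 3 and 4. Leaving out single samples gave -0.11 to 0.11 for Hnf4a, -0.27 to 0.098 for Apoa1, -0.15 to 0.42 and -0.046 to 0.47 for Apoa2 probes 1 and 2, -0.42 to 0.13 for Afp, -0.053 to 0.17 for Apob and -0.018 to 0.16 for Foxa1. Between NTD embryos and diabetic pools they were Apoa2 probe 1 (-0.034) in the value table, Foxa1 (-0.041) and Apoa2 probe 1 (-0.051) with median scaling, and Afp (0.21) and Apoa1 (0.11) with array weights. Leaving out single samples gave -0.21 to 0.36 and -0.16 to 0.36 for Apoa2 probes 1 and 2, -0.35 to 0.20 for Afp, -0.19 to 0.026 for Hnf4a, -0.52 to 0.27 for Gcg, -0.26 to 0.10 for Apoa1 and -0.053 to 0.12 for Foxa1. Apob and Hnf4a have no value with probes detected on all 12 arrays. Likeness over the 8 pools alone was added after the data were seen. The dim probes of Apob and Hnf4a, near background, limit what their values show.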
